A study of Mus musculus with 55 samples.

Results

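The regions described here are the accessible regions of wild type mouse liver that lie inside domains bound by Lamin A/C. They were chosen from 2 deposited WT lists, as the ATAC-seq regions that overlapped a Lamin A/C island by at least 1 bp. Of the 27307 accessible regions of the WT list, 646 were inside an island and 26661 were outside. Both lists are measured values, so the position of these regions in WT is a description and was not tested. ATAC-seq marks open chromatin through the insertion of a transposase, and CUT&Tag maps a protein or a histone mark through a transposase tethered to its antibody. An island is a run of enriched windows joined by the program SICER2, here with windows and gaps of 20 kb.

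The study compared livers of untreated WT mice with livers of Setd8-LKO mice taken 24 h after a single injection of 3 mg/kg TCPOBOP, an agonist of the nuclear receptor CAR that drives hepatocytes into the cell cycle. The Setd8-LKO mice carried Setd8 lox/lox alleles, with a floxed exon 7, and an Alb-Cre transgene, which is active in hepatocytes. All were male C57Bl6 mice 45 to 50 days old. The labels call the controls untreated, while the study's methods speak of vehicle (corn oil) and elsewhere of mock treatment with DMSO. Genotype and treatment therefore changed together in every chromatin comparison, and their parts cannot be told apart. The same holds for the RNA of Setd8-LKO + TCPOBOP against untreated WT. A further group, WT mice 24 h after TCPOBOP, had RNA-seq only. The lists rest on 3 WT and 5 Setd8-LKO samples for ATAC-seq, 3 and 3 for H3K27ac, 4 and 2 for CTCF, 3 and 2 for Smc3, 4 and 4 for Lamin A/C and 2 and 2 for H4K20me3. Replicate numbers 1 and 2 each occur on 2 of the WT Lamin A/C libraries, so these 4 may come from only 2 mice. There was 1 list for each assay and group, so the spread between mice could not be had for any chromatin value, and the reads behind a region are not given in the lists. Shares carry 95% Clopper-Pearson intervals and differences of shares 95% Newcombe intervals. They are computed on counts of regions and cover counting error only, since the lists hold no value per mouse. Sequenced PCR products are also not independent molecules. The nuclei came from whole liver, and fewer cells of a type and less signal per cell cannot be told apart.

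The nuclear lamina is a meshwork of A-type and B-type lamins under the inner nuclear membrane. Chromatin that touches it forms lamina-associated domains, which are long, poor in genes, late replicating and mostly silent, and which carry repressive marks such as H4K20me3. Genes inside such domains are nevertheless not all closed. Promoters that escape repression are known in many cell types. H3K27ac marks active promoters and enhancers, CTCF is a zinc finger protein that anchors chromatin loops, and Smc3 is a core subunit of the cohesin ring that forms them. Setd8, also named Kmt5a, places the first methyl group on lysine 20 of histone H4, which other enzymes then extend to H4K20me3.

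The sequences of 6 regions are shown because each stands for a kind of region that the results turn on. All are from GRCm38, the build of the files, 5′ to 3′ on the plus strand. The first is the distal region with the highest WT fold enrichment among those still accessible in Setd8-LKO, in an intron of Rims1, which encodes a presynaptic scaffold. No motif searched here was found in it, and it has no capitals.
Rims1 intron, chr1:22620921-22621167: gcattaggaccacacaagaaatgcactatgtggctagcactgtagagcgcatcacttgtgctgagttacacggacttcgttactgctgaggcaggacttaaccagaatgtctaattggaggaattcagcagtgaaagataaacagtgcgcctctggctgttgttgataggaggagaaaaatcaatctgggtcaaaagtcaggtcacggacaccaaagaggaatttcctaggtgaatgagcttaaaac
The second is the corresponding region outside annotated exons among those absent from the Setd8-LKO list, and lies between genes. Its capitals mark the letters TGANTCA, the AP-1 motif.
Intergenic lost region, chr3:67677101-67677348: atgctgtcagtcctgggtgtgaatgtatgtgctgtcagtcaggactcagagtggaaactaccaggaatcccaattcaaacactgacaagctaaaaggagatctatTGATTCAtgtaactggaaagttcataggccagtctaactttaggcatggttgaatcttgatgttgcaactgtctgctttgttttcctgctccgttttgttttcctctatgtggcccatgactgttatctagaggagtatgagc
The third was chosen after its values were seen and is a kept intergenic region with the same letters in capitals.
Intergenic kept region, chr3:125794698-125794984: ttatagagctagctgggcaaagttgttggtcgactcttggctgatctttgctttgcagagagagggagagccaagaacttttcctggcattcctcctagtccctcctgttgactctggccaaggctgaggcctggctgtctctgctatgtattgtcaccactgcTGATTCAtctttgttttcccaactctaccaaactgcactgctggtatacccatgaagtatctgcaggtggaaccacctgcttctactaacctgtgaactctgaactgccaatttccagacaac
The fourth lies at the promoter of Hey2, a Notch target repressor, and carried H3K27ac in both groups. Its capitals mark its 16 CpG dinucleotides.
Hey2 promoter, chr10:30842831-30843009: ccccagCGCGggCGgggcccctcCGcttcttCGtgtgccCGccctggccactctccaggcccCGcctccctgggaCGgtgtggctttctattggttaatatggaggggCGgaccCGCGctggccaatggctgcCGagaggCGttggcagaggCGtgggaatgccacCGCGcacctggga
The fifth lies at the promoter of Mir17hg, the host transcript of a microRNA cluster, and has 13 CpG dinucleotides, in capitals. It carried CTCF in both groups.
Mir17hg promoter, chr14:115042311-115042507: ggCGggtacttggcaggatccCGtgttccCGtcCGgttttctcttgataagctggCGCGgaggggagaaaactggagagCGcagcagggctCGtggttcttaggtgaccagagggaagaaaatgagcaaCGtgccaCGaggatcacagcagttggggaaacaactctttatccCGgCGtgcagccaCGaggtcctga
The sixth, at the start of the deubiquitinase gene Uchl3, was chosen after its values were seen. Its capitals mark a match on the minus strand to AGNGGGCG, letters from the core of the CTCF motif.
Uchl3 promoter, chr14:101653559-101653853: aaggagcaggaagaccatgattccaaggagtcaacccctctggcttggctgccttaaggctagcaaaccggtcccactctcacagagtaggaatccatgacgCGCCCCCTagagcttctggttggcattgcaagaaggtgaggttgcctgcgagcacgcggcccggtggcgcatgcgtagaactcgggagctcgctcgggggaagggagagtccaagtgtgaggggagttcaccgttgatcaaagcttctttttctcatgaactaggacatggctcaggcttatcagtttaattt

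The 2 intergenic regions with the AP-1 letters had similar WT fold enrichment over the local background, 13.4 for the lost and 14.8 for the kept one, and the latter stood at 13.1 in Setd8-LKO. The Rims1 region had a fold enrichment of 14.9 in WT and 14.3 in Setd8-LKO. None of these 3 distal regions carried H3K27ac, CTCF or Smc3 in either group. All 3 were inside a Lamin A/C island in Setd8-LKO as well. At the Hey2 promoter the H3K27ac fold enrichment was 9.50 in WT and 10.2 in Setd8-LKO, although the accessible region, at 11.4 in WT, was not on the Setd8-LKO list. At the Mir17hg promoter the fold enrichment of CTCF was 12.3 in WT and 96.7 in Setd8-LKO, that of Smc3 was 15.0 and 117, and the accessible region stood at 10.3 and 9.45. At the Uchl3 promoter CTCF was at 17.4 and 55.3, and the accessible region, at 6.83 in WT, was lost. That region was among the weakest of the WT list, with a −log10 p of 16.3 against 16.2 for the lowest of the 646.

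The 1094 WT islands covered 849.78 Mb, and 376 of them, or 34.4%, held an accessible region. Those 376 had a median length of 740000 bp, against 360000 bp for the 718 islands that held none. Of the islands with a region, 224 held a single one and 88 held 2. The highest number in an island was 8. One island with 8 regions lay at chr16:84900001-86240000, with the metalloprotease genes Adamts1 and Adamts5 and the amyloid precursor gene App, and 5 of its regions were kept in Setd8-LKO. The other, at chr13:18860001-20640000, covers Elmo1, an activator of Rac signalling, and kept 6. Of the 2 islands with 7 regions, the one at chr3:126660001-127740000, with Ank2, Camk2d, Larp7 and Zgrf1, kept 6. Regions per Mb of island ranged from 0.415 on chromosome 15 to 1.23 on chromosome 10, while the 27 islands of chromosome X, 8.94 Mb in all, held none.

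Most of the regions were well inside their islands. The median distance to the nearest island end was 80933.5 bp, 165 regions were within 20000 bp of an end, and 3 crossed an end. The 3 that crossed were at Crbn, at Gm36967 and at chr5:77459992-77460527, with fold enrichments of 7.71, 7.83 and 6.83. Just outside, the 3 nearest regions were 55, 175 and 237 bp from an island, with fold enrichments of 5.85, 10.3 and 5.59.

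By position in genes, 257 of the 646 regions, or 39.8%, were within 1000 bp of a transcript start and are called promoter regions here. Of the 389 distal regions, 18 were exonic, 174 intronic and 197 intergenic. The share of promoter regions outside the islands was 39.1%. The median WT fold enrichment was 9.45 inside and 7.48 outside, the median −log10 p was 29.2 and 28.2, and the median length was 274 and 297 bp. Promoter regions inside islands had a median GC content of 61.0% and 6.68 CpG per 100 bp. Distal regions inside islands had a GC content of 45.5%, against 49.4% for distal regions outside. These are values of the list that chose the regions and are given without a test.

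Of the 646 regions, 465 were kept in Setd8-LKO, meaning that they overlapped a region of the Setd8-LKO list, a share of 72.0% (68.3 to 75.4%). The share outside the islands was 73.0%, so the difference was −1.06 percentage points (−4.69 to 2.31). This near equality was the sum of 2 differences of opposite sign. Promoter regions inside islands were kept in 84.4% of cases (217 of 257) and those outside in 77.8%, a difference of 6.68 points (1.68 to 10.7). Distal regions inside islands were kept in 63.8% of cases (248 of 389) and those outside in 70.0%, a difference of −6.26 points (−11.2 to −1.58). Intronic and intergenic regions were alike in this respect, with 63.8% and 62.4% kept. A region called lost is one absent from the Setd8-LKO list, and its remaining signal is not known.

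**Figure D1:**
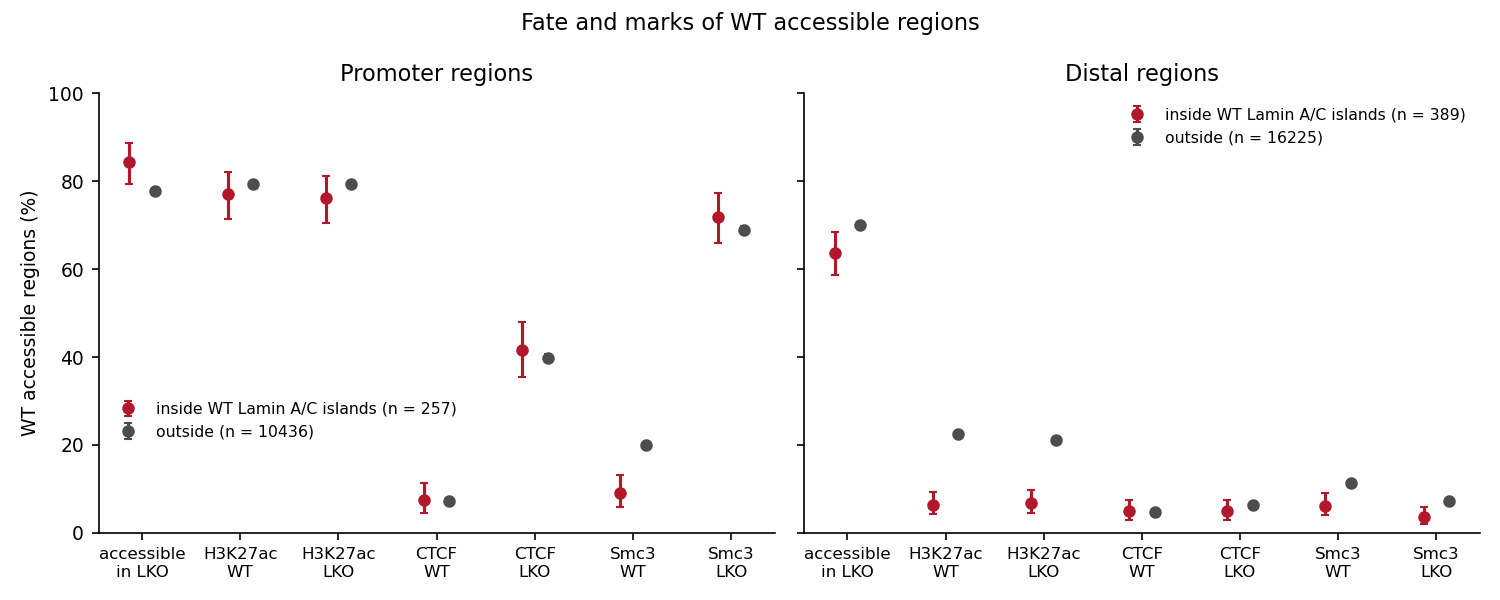
Share of WT accessible regions that were accessible in Setd8-LKO or carried H3K27ac, CTCF or Smc3, in percent, for promoter regions (left) and distal regions (right). Red points are regions inside WT Lamin A/C islands and grey points regions outside, with 95% Clopper-Pearson intervals. Distal regions inside islands carried H3K27ac in 6.43% of cases in WT, against 22.5% outside, and promoter shares of H3K27ac were within 3.05 points of each other.

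WT fold enrichment was higher inside the islands. Outside, the share kept was 67.4% in the lowest of 10 bins of fold enrichment and 88.8% in the highest. Inside, it did not move steadily with fold enrichment. It was 64.6% in the lowest bin (51.8 to 76.1%), 76.6% in the third, 63.1% in the fourth, 68.8% in the ninth and 78.5% in the highest (66.5 to 87.7%), with overlapping intervals at the ends. After standardisation to the fold enrichment of the regions inside islands, the difference for all regions was −6.95 points and that for distal regions −12.3 points, and the difference for promoter regions was −1.36 points, the opposite sign of the plain difference. With standardisation to the −log10 p instead, the 3 differences were −3.01, −7.56 and 3.95 points. The lower kept share of distal regions thus held under both, and the higher share of promoter regions under 1 of them. The standardised differences have no interval here.

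**Figure D2:**
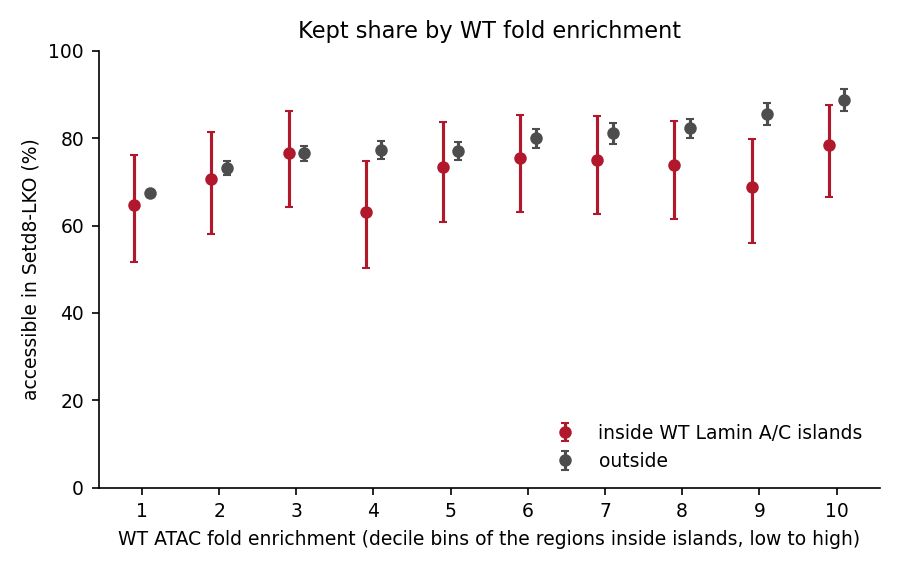
Share of WT accessible regions kept in Setd8-LKO, in percent, against WT ATAC fold enrichment in the decile bins of the regions inside islands. Red points are regions inside WT Lamin A/C islands and grey points regions outside, with 95% Clopper-Pearson intervals. In the highest bin 78.5% were kept inside and 88.8% outside.

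Regions that were kept had close to the same fold enrichment in both groups. The median inside the islands was 9.55 in WT and 9.20 in Setd8-LKO, a median log2 ratio of −0.06, and 38.3% were higher in Setd8-LKO. Outside, the median log2 ratio was −0.10 and 29.4% were higher. For distal regions the shares higher in Setd8-LKO were 44.0% inside and 30.6% outside. The kept regions with the highest WT fold enrichment were at the promoters of Kifap3, a kinesin-associated protein, at 16.8 in WT and 16.1 in Setd8-LKO, and of Asnsd1, at 15.3 and 13.6. A region inside Magi2, which encodes a scaffold of cell junctions, went from 14.3 to 10.4. The lost region with the highest WT value was in Pappa2, a protease of insulin-like growth factor binding proteins, at 13.6. The median length was 208 bp for lost and 313 bp for kept regions, and the median −log10 p was 24.7 and 31.6.

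**Figure D3:**
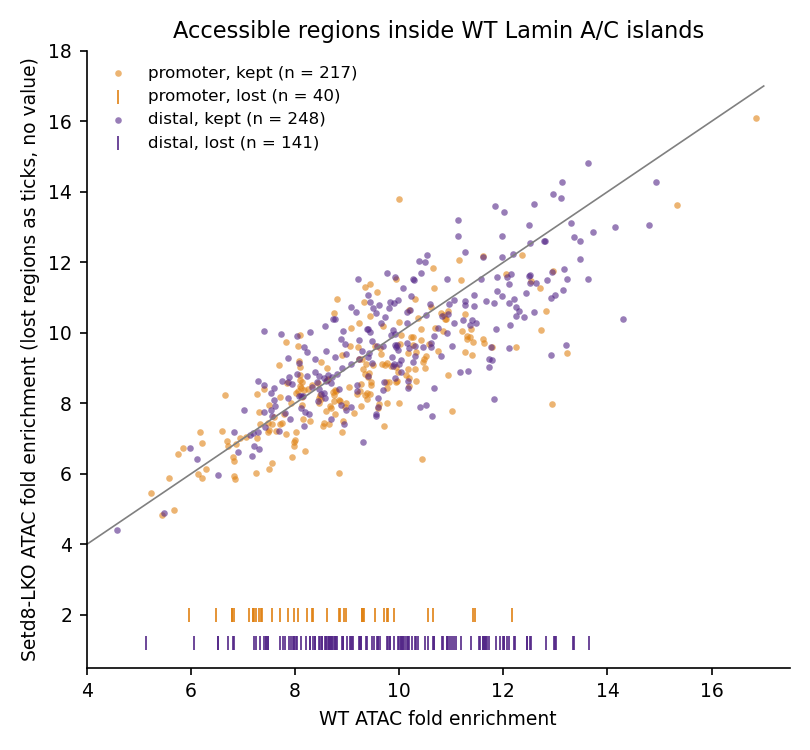
ATAC fold enrichment in Setd8-LKO against that in WT for the 646 regions inside WT Lamin A/C islands. Orange marks promoter regions and purple distal regions, points are kept regions, ticks at the bottom are regions absent from the Setd8-LKO list (placed by their WT value), and the grey line marks equal values. Kept regions lie around the line, and lost regions span WT values from 5.14 to 13.6.

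In the other direction, 631 of the 23386 regions of the Setd8-LKO list were inside WT islands, and 164 of them, or 26.0% (22.6 to 29.6%), had no WT region. Outside the islands 3194 of 22755 had none (13.6 to 14.5%). Of the 164 gained regions, 17 were promoter regions. The Setd8-LKO list has fewer regions in all than the WT list.

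H3K27ac separated the promoter regions from the distal ones. Inside the islands 77.0% of promoter regions carried H3K27ac in WT and 76.3% in Setd8-LKO, and outside 79.3% in both groups. Distal regions inside the islands carried it in 6.43% of cases in WT (4.20 to 9.34%) and 6.68% in Setd8-LKO, against 22.5% of 16225 outside in WT and 3411 of them in Setd8-LKO. The difference was −16.1 points (−18.2 to −13.1) in WT. Counted within 500 bp, the WT shares of distal regions were 11.1% and 32.3%. In all, 208 regions had H3K27ac in both groups, 15 only in the WT list and 14 only in the Setd8-LKO list. At promoter regions with H3K27ac in both, the median fold enrichment was 32.1 in WT and 33.6 in Setd8-LKO.

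Regions with H3K27ac in WT were kept in 88.3% of cases (83.4 to 92.2%) and regions without it in 63.4% (58.6 to 68.0%). Among promoter regions the shares were 87.9% (82.5 to 92.1%) and 72.9% (59.7 to 83.6%), with intervals that overlap. Among distal regions 23 of the 25 with H3K27ac were kept, and 61.8% of the 364 without it. Outside the islands the distal shares were 82.0% and 66.5%. The 26 lost regions with H3K27ac in WT all had it in the Setd8-LKO list too, among them the regions of Hey2 and Uchl3. Kifap3 and Asnsd1, named above, had H3K27ac fold enrichments of 14.6 and 18.1 and of 32.1 and 36.8 in WT and Setd8-LKO.

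CTCF was on the list at 38 regions in WT, or 5.88%, and at 126 in Setd8-LKO, or 19.5%. The increase was at promoter regions, from 7.39% to 41.6%, while distal regions stood at 4.88% in both. Outside the islands the shares at promoter regions were 7.31% and 39.7%, so in neither group did the interval of the difference leave 0. The Setd8-LKO list of CTCF has 20875 peaks and the WT list 5837. Reduced to its 5837 strongest peaks, the Setd8-LKO list marked 7.43% of the regions. CTCF was on both lists at 31 regions, and there its median fold enrichment was 12.8 in WT and 46.5 in Setd8-LKO. At such regions outside the islands it was 12.9 and 54.7, so the higher value was not particular to the islands. Of the 95 regions with CTCF in Setd8-LKO only, 90 were promoter regions, with a median fold enrichment of 12.2. The highest values were at Ndufaf4, an assembly factor of respiratory complex I, at 12.9 in WT and 112 in Setd8-LKO, at Crbn, a substrate receptor of a ubiquitin ligase, at 13.3 and 108, and at the shared start of Ccdc59 and Mettl25, at 15.0 and 101.

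The letters AGGGGGCGC from the core of the CTCF motif were found at 2 of the 95 CTCF peaks that were on the Setd8-LKO list alone, or 2.11% (0.256 to 7.40%), and at 7 of the 31 peaks on both lists, or 22.6% (9.59 to 41.1%). The looser letters AGNGGGCG, which every match to the longer ones also holds, were at 21.1% and 45.2%. Among all 20875 peaks of the Setd8-LKO list the shares were 5.48% and 17.7%. Windows were 200 bp long and both strands were read.

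Smc3 showed the same division. Promoter regions inside the islands carried it in 8.95% of cases in WT and 72.0% in Setd8-LKO, and distal regions in 6.17% and 3.60%. In WT the shares were below those outside, with differences of −11.0 points (−14.0 to −6.83) at promoter regions and −5.17 points (−7.22 to −2.28) at distal regions. In Setd8-LKO the difference at promoter regions was 2.99 points (−2.86 to 8.21), while distal regions stayed below those outside, at 3.60% against 7.17%, a difference of −3.58 points (−5.07 to −1.19). Reduced to the size of the WT list, the Setd8-LKO list marked 26.3% of all 646 regions, against 30.8% for the whole list. At the 167 promoter regions with Smc3 in Setd8-LKO only, its median fold enrichment was 40.8, and at such regions outside the islands it was 48.1. The kept shares with and without Smc3 in WT were 83.0% and 71.1%, with intervals that overlap.

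The 2 broad domains set these regions apart from the islands around them. Of 42489 windows of 20 kb in the WT islands, 72.5% overlapped an H4K20me3 island in WT and 60.9% in Setd8-LKO, but of the 646 regions 82 did in each group, or 12.7%. Lamin A/C islands of Setd8-LKO covered 85.5% of the windows and 291 of the regions, or 45.0% (41.2 to 49.0%). The regions were nearer to island ends than the windows. Standardised to their distances, the shares of windows were 59.8% and 48.4% for H4K20me3 and 74.2% for Lamin A/C, all above those of the regions. Of the regions with H4K20me3, 56 had it in both groups and 26 in each group alone. Outside the WT Lamin A/C islands, 0.810% of accessible regions had H4K20me3 in WT and 2.14% in Setd8-LKO. H4K20me3 in WT was at 8.56% of promoter regions, 9.77% of intronic and 21.8% of intergenic regions.

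**Figure D4:**
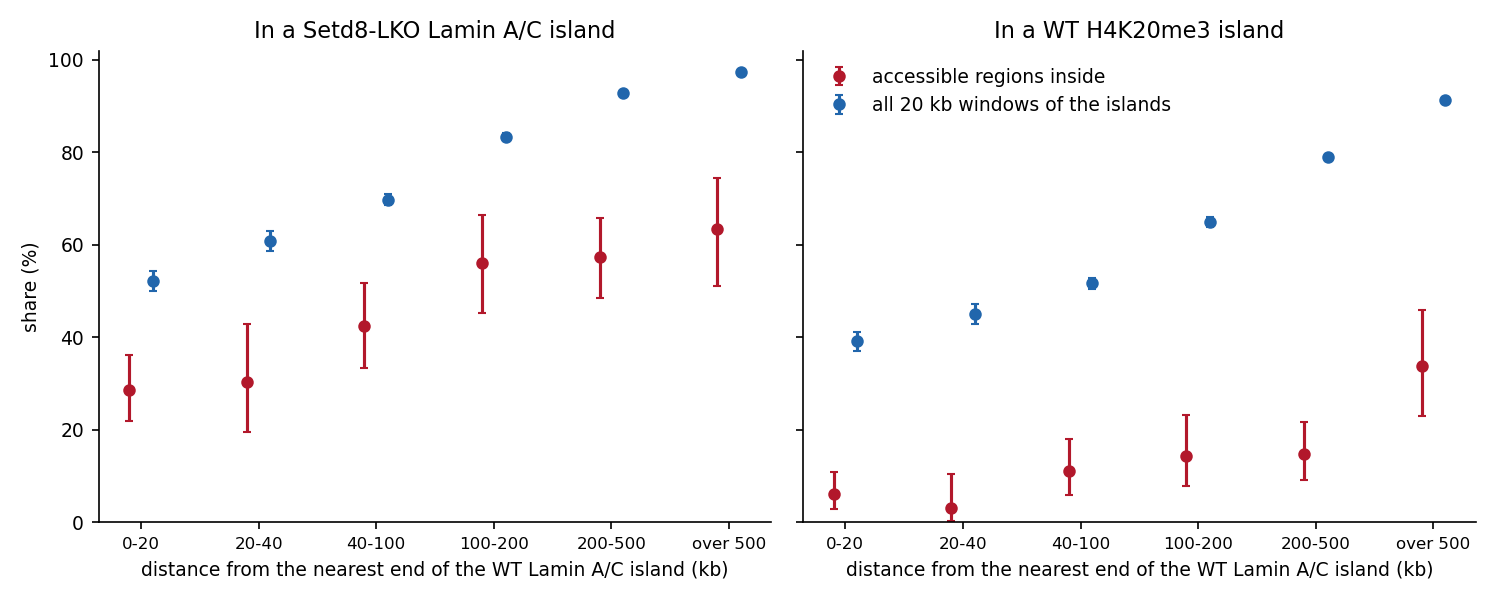
Share inside a Setd8-LKO Lamin A/C island (left) and inside a WT H4K20me3 island (right), in percent, by distance from the nearest end of the WT Lamin A/C island in kb. Red points are the accessible regions and blue points all 20 kb windows of the islands, with 95% Clopper-Pearson intervals. In every distance bin the red point is below the blue one, from 28.7% and 52.2% at 0 to 20 kb to 63.4% and 97.3% over 500 kb for Lamin A/C.

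Regions that were still in a Lamin A/C island in Setd8-LKO were kept in 64.3% of 291 cases (58.5 to 69.8%), and those that were not in 78.3% of 355 (73.7 to 82.5%), with intervals that did not overlap. For promoter regions they were 77.8% and 88.6%, and for distal regions 57.3% and 70.1%, and in each class the intervals overlap. H3K27ac in WT was at 26.1% of the 291 and 41.4% of the 355, of which 99 and 158 were promoter regions. At promoter regions its shares were 64.6% and 84.8%, and at distal regions 6.25% and 6.60%. With H4K20me3 in WT the kept share was 59.8% (48.3 to 70.4%), and without it 73.8% (69.9 to 77.3%). These intervals overlap, as they do within promoter regions, at 72.7% and 85.5%, and within distal regions, at 55.0% and 65.3%. Outside the islands the order was the other way over all regions, at 75.9% and 73.0%, and at promoter regions, at 83.9% and 77.7%. At distal regions outside, the order was the same as inside, at 62.0% and 70.0%. In each of these pairs the intervals overlap too.

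Of 20 motifs searched in the central 200 bp on both strands, 3 had intervals that did not overlap between distal regions inside and outside the islands. The AP-1 letters TGANTCA, bound by Fos and Jun proteins, were in 12.6% of 389 distal regions inside (9.47 to 16.3%) and 8.42% outside (7.99 to 8.85%), with 8.51% over all WT distal regions. They were in 37 of the 248 kept regions, or 14.9%, and 12 of the 141 lost ones, or 8.51%, with overlapping intervals. A motif of the hepatocyte factor HNF1 was in 4.63% inside (2.77 to 7.21%) and 1.84% outside (1.64 to 2.06%). The E-box CACGTG was in 1.54% inside (0.568 to 3.33%) and 4.78% outside (4.46 to 5.12%). The FOXA letters TGTTTAC were in 8.23% inside and 7.52% outside. Within the islands they were in 10.9% of kept distal regions (7.30 to 15.4%) and 3.55% of lost ones (1.16 to 8.08%), with overlapping intervals. A second form of the FOXA letters, TGTTTGC, went the other way, at 7.66% of kept distal regions (4.68 to 11.7%) and 14.2% of lost ones (8.88 to 21.1%), which overlap too. Over promoter and distal regions together this form was in 4.52% of the kept (2.82 to 6.82%) and 13.3% of the lost (8.68 to 19.1%), and these intervals did not overlap. Base composition differed between these sets as given above, and its part was not tested. These motifs were picked after all 20 were seen, and a match is a description of letters, not of binding.

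Of 21951 protein-coding genes, 2714 started inside a WT Lamin A/C island, or 12.4%, and 258 of these had an accessible region within 1000 bp of a start. None of the 100 cytochrome P450 genes, the 24 liver transcription factors, the 16 CAR target genes, the 22 major urinary proteins or the 9 hepatocyte markers started in an island. Olfactory receptor genes, which detect odorants in the nose, started there in 775 of 1135 cases, and only Olfr1160 and Olfr978 had a promoter region, both kept. Of 331 vomeronasal receptor genes 160 did, and none had a region. Protocadherin and cadherin genes, which encode adhesion molecules, started there in 42 of 92 cases, with a promoter region only at Pcdh17. Of 394 zinc finger genes with a symbol of Zfp and a number, 15 started in an island, and 6 of them (Zfp120, Zfp202, Zfp386, Zfp558, Zfp788 and Zfp937) had a promoter region, 5 of which were kept. Of the 33 solute carrier genes in islands, Slc24a3, Slc25a40, Slc39a10 and Slco4c1 had one, and 3 were kept.

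RNA-seq of whole liver compared 5 untreated WT, 5 WT + TCPOBOP and 4 Setd8-LKO + TCPOBOP samples. The tables list only genes that the authors selected for a change, 3900 genes for Setd8-LKO + TCPOBOP against WT, 3888 of them among the 55450 annotated genes, with 5734065 to 12780869 raw counts in listed genes per library. Kmt5a, which encodes Setd8, had 613, 567, 761, 563 and 715 normalized counts in WT and 1341, 1465, 1338 and 1313 in Setd8-LKO. Counts over the whole gene do not report on the deleted exon 7 and so do not check the labels. A gene was called changed at an adjusted p under 0.05 (edgeR's quasi-likelihood test, Benjamini-Hochberg) and at least 2-fold. Because of the selection, 85.1% of the 3726 listed genes tested were called, 50.5% as higher and 34.6% as lower, and this is the background for the counts below with the authors' factors and all libraries.

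Of 321 genes with an accessible region of the islands at a transcript start, 49 were listed, or 15.3%. Among protein-coding genes the listed share was 17.8% of 258, 15.5% of the 9200 with an accessible region outside the islands at a start, 13.6% of all 21951, and 5.34% of the 2342 that started in an island without such a region. The share was thus close to that of other genes with an accessible start. Of the 47 tested, 30 rose and 5 fell, and 12 did not pass the test, with a median log2 fold change of 1.46, against 1.16 over all listed genes tested. Genes that started in an island without such a region had a median of 1.45, and 111 of the 184 tested rose and 36 fell. With size factors computed from the listed genes alone the balance of all listed genes reversed, with 766 of 3608 tested rising, 1464 falling and a median of 0.30. Of the genes with an accessible region of the islands at a start, 46 were then tested, 15 rose and 7 fell, and their median was 0.65. The headers put the libraries in 2 runs, named A and B, without saying what a run was. In the run with 2 WT and 3 Setd8-LKO libraries 15 of 49 genes tested rose and 2 fell, against 1039 rising and 914 falling of all 3872 listed genes tested there, and the other run held 1 Setd8-LKO library. Of 36 genes with a kept region 25 rose and 3 fell, and of 11 without one 5 rose and 2 fell.

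Of the 10 largest rises among them, 9 are described. They were chosen for the size of a called change among genes the authors had selected for a change. Groups without overlap follow in part from that choice, and their share over all listed genes is not given here. Nuf2, a subunit of the Ndc80 complex that ties kinetochores to microtubules, had 1, 3, 7, 4 and 14 normalized counts in WT and 124, 154, 144 and 91 in Setd8-LKO, a log2 fold change of 4.42 ± 0.48 (SE) and an adjusted p of 0.000154. Mad2l1, a spindle checkpoint protein, had 19, 35, 46, 26 and 59 in WT and 268, 276, 225 and 239 in Setd8-LKO, a log2 fold change of 2.77 ± 0.30 and an adjusted p of 0.000142. In both genes every Setd8-LKO sample was above every WT sample. The accessible region of Mad2l1 had a fold enrichment of 10.9 in WT and 10.4 in Setd8-LKO, with CTCF on the Setd8-LKO list alone. Arhgap11a, a GTPase-activating protein for RhoA, had 40, 24, 42, 55 and 39 normalized counts in WT and 385, 375, 390 and 341 in Setd8-LKO. Depdc1a was at 0, 0, 2, 2 and 4 in WT and 64, 56, 56 and 50 in Setd8-LKO. Groups did not overlap in either gene, with log2 fold changes of 3.22 and 4.93, both past the threshold. The fold change of Depdc1a, which had at most 4 counts in WT, was 5.57 on the log2 scale without WT replicate 5 and 9.05 within the run of 2 WT and 3 Setd8-LKO libraries. That of Nuf2 was 5.05 without WT replicate 5 and 6.26 within that run. The Depdc1a region had no H3K27ac in either group and lay in an H4K20me3 island in WT.

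Exo1, an exonuclease of mismatch repair, Neil3, a DNA glycosylase, Diaph3, a formin that builds actin filaments, Cip2a, an inhibitor of the phosphatase PP2A, and the kinesin Kif18a rose by log2 fold changes of 2.44 to 3.00. All of the 9 regions at these rising genes were kept, and 36 of all 47 genes tested had a kept region. Of the 9, 7 were inside a Lamin A/C island in Setd8-LKO too, the exceptions being Nuf2 and Kif18a. Among the 47 genes the strongest region was in such an island at 32. The rise of Kif18a did not pass the test with size factors from the listed genes, where its log2 fold change was 1.64 and its adjusted p 0.100. That of Exo1 did not pass within the run of 2 WT and 3 Setd8-LKO libraries, where its log2 fold change was 4.15 and its adjusted p 0.0696 by edgeR. Kif18a and Neil3 had log2 fold changes of 5.02 and 3.69 within that run and passed the test there. With the run as a term, Kif18a was at 3.11.

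Of the 5 that fell, Pclo, which encodes the presynaptic protein piccolo, had 41, 16, 82, 28 and 78 normalized counts in WT and 11, 9, 5 and 6 in Setd8-LKO, a log2 fold change of −2.63 ± 0.51 and an adjusted p of 0.00801. Jph1, a junctophilin that joins the plasma membrane to the endoplasmic reticulum, had 38, 24, 46, 45 and 70 in WT and 5, 6, 11 and 9 in Setd8-LKO, with −2.56 ± 0.37 and 0.00108. These were the 2 genes among the 14 named whose region was lost, while H3K27ac stayed on both lists at each of them. At Jph1 its fold enrichment was 39.0 in WT and 22.5 in Setd8-LKO, and at Pclo 19.1 and 29.8. Within the run of 2 WT and 3 Setd8-LKO libraries neither fall passed the test by edgeR, with a log2 fold change of −2.11 and an adjusted p of 0.0878 for Jph1, and −1.77 and 0.281 for Pclo. Olfm3, an olfactomedin, Gm5524, a lincRNA, and Chchd7, a mitochondrial protein, fell by 2.21, 2.04 and 1.35 on the log2 scale and kept their regions. The fall of Chchd7 did not pass within that run either, at −1.45 and an adjusted p of 0.120 by edgeR.

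**Figure D5:**
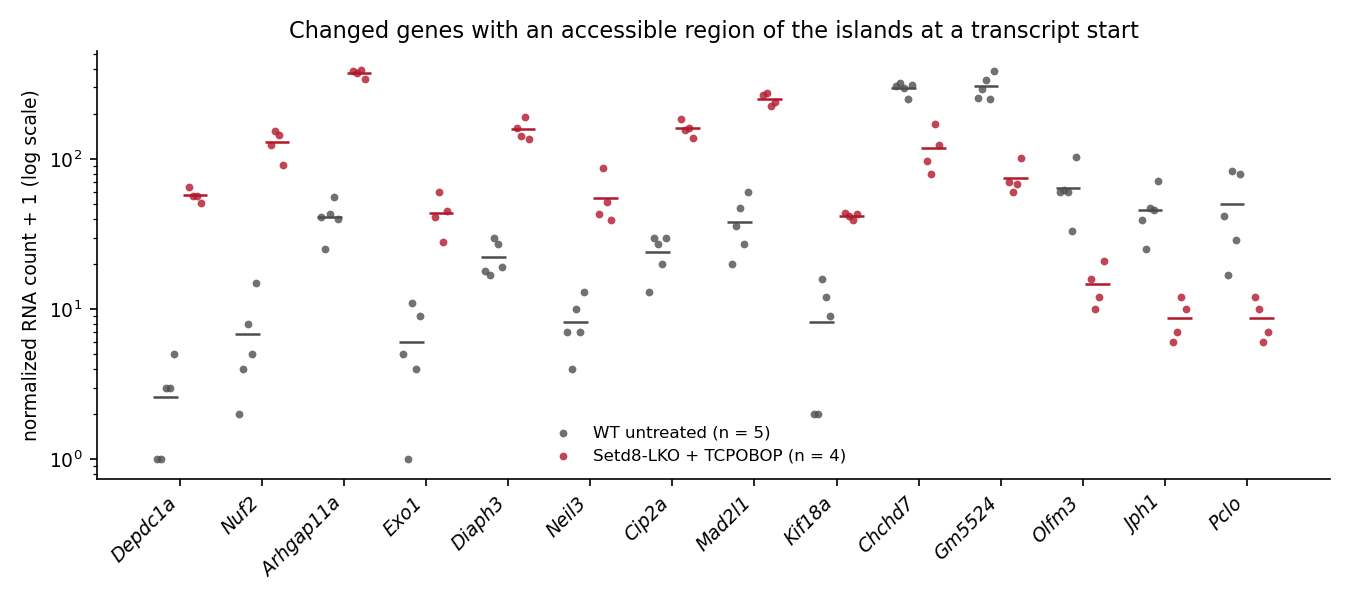
Normalized RNA count plus 1, on a log axis, of the 14 named genes with an accessible region of a WT Lamin A/C island at a transcript start. Grey points are the 5 untreated WT samples, red points the 4 Setd8-LKO + TCPOBOP samples, and bars the mean. In each gene the groups do not overlap, with 9 genes higher and 5 lower in Setd8-LKO. The genes were chosen for the size of a called change.

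Of 144 genes with such a region only in the gene body, 30 were listed and 29 tested. Of these, 18 rose and 7 fell, with a median log2 fold change of 1.32. With size factors from the listed genes 8 of 27 rose and 8 fell, and within the run of 2 WT and 3 Setd8-LKO libraries 8 of 30 rose and 5 fell. Nebl, an actin-binding protein, had 28, 16, 22, 13 and 28 normalized counts in WT and 548, 550, 521 and 382 in Setd8-LKO, a log2 fold change of 4.54 ± 0.25 and an adjusted p of 3.92e-06. Kif5c, a kinesin heavy chain, had 5, 1, 2, 1 and 2 and then 99, 76, 40 and 90. Nox4, an NADPH oxidase, fell from 949, 745, 396, 479 and 552 to 38, 26, 38 and 27, a log2 fold change of −4.26 ± 0.31 and an adjusted p of 1.51e-05. No groups overlapped in these 3 genes, which were also named for the size of their change. The region in each of them was lost, whether its RNA was higher or lower. Peg3, an imprinted zinc finger gene, rose by a log2 fold change of 2.65 and kept its region, which is 1507 bp long. The heavy chain constant gene Igha and the transcription factor gene Lmx1a rose by 4.08 and 3.48, and the rise of Lmx1a did not pass within the run of 2 WT and 3 Setd8-LKO libraries, at 3.75 and an adjusted p of 0.0709 by edgeR, and was 4.75 without WT replicate 4. Trhde, a peptidase that degrades thyrotropin-releasing hormone, fell by 4.32, and the melanocyte enzyme gene Dct by 3.87 with an SE of 0.77. Fmn2, a formin, and Cadps2, a protein of vesicle release, fell by 1.49 and 1.40. Dct had 137, 164, 22, 19 and 43 normalized counts in WT and 4, 3, 7 and 7 in Setd8-LKO. Its 2 higher WT values were those of the run of 2 WT and 3 Setd8-LKO libraries. The fall of Fmn2 did not pass the test within that run or with the run as a term. Nor did it pass without WT replicate 1, Setd8-LKO replicate 1 or Setd8-LKO replicate 2. In these fits the adjusted p was from 0.0502 to 0.130 by edgeR and the log2 fold change from −1.58 to −1.34.

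Markers of cell types moved in the same libraries. Of 9 hepatocyte markers 6 were listed, of which 5 fell and Cyp3a11, a CAR target, rose. The most abundant was Alb, and their summed normalized counts were 1343405, 1682372, 1634015, 1213582 and 1945761 in WT and 655050, 656595, 766619 and 891231 in Setd8-LKO. All 5 cholangiocyte markers were listed and 4 rose, with Spp1 the most abundant, and sums of 686, 609, 422, 668 and 465 in WT and 7426, 5932, 1617 and 3850 in Setd8-LKO. Of 6 stellate and fibroblast markers Col1a1, Col3a1 and Dcn were listed and rose, with Dcn the most abundant, and sums of 2597, 1947, 2690, 2745 and 2951 and then 11108, 10138, 4813 and 6360. Of 3 neutrophil markers S100a8 and S100a9, the more abundant, were listed and did not pass, with sums of 6, 7, 39, 100 and 12 and then 86, 85, 71 and 121. No listed marker was at 0 in a library. Macrophage, endothelial and lymphocyte markers were not listed, and their levels were not analysed here. The part of these cell types in the RNA and chromatin values above was not tested.

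In WT + TCPOBOP against untreated WT, 67.6% of 679 listed genes tested were called, 51.4% as higher and 16.2% as lower. With size factors from the listed genes the balance reversed, with 67 of 674 rising and 195 falling, and the median log2 fold change was 0.16 in place of 1.34. None of the 3 genes with a promoter region and 1 of the 4 with a region in the body passed the test then. This comparison shares its WT samples with the former. Of the genes with a promoter region, Mcm3, Nuf2 and Tmed3 were tested. Mcm3, a subunit of the replicative helicase, had 69, 79, 78, 100 and 98 normalized counts in WT and 221, 114, 228, 328 and 231 after TCPOBOP, a log2 fold change of 1.40 ± 0.27 and an adjusted p of 0.0344 by edgeR, and the groups did not overlap. Leaving out any 1 of 9 of the 10 libraries, Mcm3 no longer passed the test. In Setd8-LKO + TCPOBOP its log2 fold change was 1.78. Nuf2 had 33, 11, 15, 63 and 20 normalized counts after TCPOBOP, which overlap with WT, and did not pass the test, with a log2 fold change of 2.24 ± 0.63 and an adjusted p of 0.396 by edgeR. Tmed3 had 485, 499, 195, 277 and 174 in WT and 631, 870, 705, 817 and 880 after TCPOBOP, without overlap, and its log2 fold change of 1.26 ± 0.31 did not pass either, with an adjusted p of 0.165 by edgeR. Of the genes with a region in the body, Nebl rose by a log2 fold change of 4.66, Ncam2 by 1.80 and Peg3 by 1.71, and Gmds did not pass. Leaving out 1 library at a time, Nebl passed in 10 of 10 fits, Ncam2 in 2 and Peg3 in 1. Nebl had 472, 319, 379, 808 and 744 normalized counts after TCPOBOP, so its level was high in both treated groups.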

How the data were processed

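ATAC-seq, ChIP-seq, CUT&Tag and RNA-seq of mouse liver were used. For the chromatin assays the authors trimmed reads (Trimmomatic 0.39), aligned them to mm10 with HISAT2, removed duplicates and blacklisted reads, reduced ChIP-seq and CUT&Tag reads to the smallest sample, and called peaks with MACS2 2.2.7.1 or islands with SICER2. The deposited lists give the fold enrichment (a ratio to local background) and −log10 p of each peak and the score of each island. Pooling of replicates is not stated. The RNA tables hold raw counts and normalized counts, a score that the authors made as count times 1 factor per library, for genes they selected. Their p-values and fold changes were not used, nor were 114 columns of other transformations.

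Regions were matched by an overlap of 1 bp (Python 3.11.15, pandas 2.3.3, SciPy 1.17.1, pysam 0.24.0). Promoter regions lie within 1000 bp of a GENCODE transcript start. The test on raw counts was edgeR's, version 4.0.16 under R 4.3.3 (quasi-likelihood, authors' factors as scaling, minimum count 10). The Benjamini-Hochberg adjustment took the 55450 annotated genes as the number of tests. DESeq2 1.42.0 served alternatives. The test was also run on simulated data, and the outcome of that check is not reported here. P-values measure the spread between mouse livers as labelled. Replicate numbers did not pair the samples.

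The regions and lists were chosen with earlier results of these data known. Regions named are those with the highest fold enrichment among kept, lost, H3K27ac and CTCF regions, those nearest to island ends, and 3 islands with most regions, the third tied with another. Genes named are the 10 largest rises and falls with a promoter region and the 5 with a region in the body; 1 result of this rule is not reported here.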

Additional observations from a re-analysis of the deposited data

Results flagged for a closer look

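Of 51 groups of 4 or 5 RNA libraries tested for a sample far from the others, 1 had one, and chance gives about 1 in 20. Kif5c, a kinesin heavy chain gene with a lost region in its body, had a normalized count of 5 in WT replicate 1 and of 1 to 2 in the other 4 WT samples. All 4 Setd8-LKO samples, at 40 to 99, were above it.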

How the results depend on the processing

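The overlap rule, list size and depth inside an island moved some chromatin shares. With a reciprocal overlap of 50%, 67.6% of the regions were kept, H3K27ac was at 13.9% in WT and 13.2% in Setd8-LKO, CTCF at 2.01% and 8.36%, and Smc3 at 3.72% and 13.2%. With only Setd8-LKO regions of a −log10 p of at least 20, 66.3% were kept. With the larger list reduced to the size of the smaller, CTCF in Setd8-LKO was at 7.43% and Smc3 at 26.3%. Among regions at least 20000 bp inside an island, 50.7% were in a Lamin A/C island in Setd8-LKO. The difference in kept share was −6.95 points after standardisation to fold enrichment and −7.97 points with promoter class added, and the difference for promoter regions reversed to −1.36 points, an alternative chosen after seeing the data. The cause was not tested.

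For RNA, DESeq2 size factors over the listed genes gave 22 changed genes with a promoter region, in place of 35, and 16 with a region in the body, in place of 25. Run B alone, with 2 WT and 3 Setd8-LKO libraries and chosen after seeing the data, gave 17 and 13. With the replicate block the counts were 24 and 14, though same-numbered samples correlated between −0.235 and 0.100 and share only a number. Leaving out 1 library at a time gave 30 to 37 and 21 to 24, and for WT + TCPOBOP 0 to 1 and 1 to 3. Of 384 values of the 24 named genes under 16 settings, 384 kept their direction and 367 their call. Of the 17 lost, 6 were lost with the block and 6 in run B alone. Without values per mouse the precision of the chromatin shares is limited to counting error, and RNA of genes not listed could not be tested.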

Other observations

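Accessible regions were unevenly spread around island ends. In WT there were 1.14 regions per Mb at 40 to 60 kb inside an end, 1.52 at 20 to 40 kb and 3.77 in the last 20 kb, then 1.87 in the first 20 kb outside, 3.98 at 20 to 40 kb and 7.88 at 40 to 60 kb. The density was thus higher just inside the ends than just outside them. Island ends fall on steps of 20 kb, so the place of an end is not known more finely than that.

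Ncam2, a neural adhesion gene with 2 kept regions in its body, had 106, 88, 111, 37 and 131 normalized counts in untreated WT and 268, 223, 248, 475 and 434 in WT + TCPOBOP, without overlap. Its log2 fold change was 1.80 ± 0.35 there, with an adjusted p of 0.0382 by edgeR. It passed the test in 2 of the 10 fits that left out 1 library and did not pass with size factors from the listed genes, where the log2 fold change was 0.61. Its log2 fold change was −1.35 in Setd8-LKO + TCPOBOP, where it did not pass the test, with an adjusted p of 0.150. The difference between these effects was not tested, and both share the untreated samples.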
